A study of Mus musculus with 2 samples.

Results

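The genes described here are 57 mouse genes of DNA replication and S phase, taken from a list of names and found in the deposited tables by their gene symbol. All 57 were among the 38087 genes of the tables, and 56 were listed above the floor of 1 RPKM in at least 1 library (RPKM is reads per kilobase of gene per M reads of the library, so levels of different genes are per length). RNA had been measured in sorted stomach cells labelled parietal, the type that secretes acid, from C57BL/6 mice on a high fat diet (HFD) or on the comparison diet (Control). Each diet was 1 sequencing library of RNA depleted of ribosomal RNA, and the labels give neither the age of the mice, the number of mice per library, nor the marker used for sorting. The defining pump genes Atp4a and Atp4b were abundant in both libraries, but markers of chief and pit cells summed to more than the parietal markers in both. The chief sum came mostly from its most abundant marker, and the values are given at the end. With 1 library per diet there was no replicate spread and no test, so every difference below is a difference between these libraries. Intervals are approximate 95% intervals from estimated reads and cover counting error only.

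Eukaryotic DNA replication begins at origins bound by the origin recognition complex (ORC), which with Cdc6 and Cdt1 loads the ring-shaped MCM helicase in G1. At the start of S phase, kinases and loading factors turn the ring into the active helicase, and polymerases, a sliding clamp, a nuclease and a ligase copy both strands. Most of these genes are expressed when cells enter S phase, many as targets of E2F transcription factors. In the gastric gland, dividing progenitors lie in the isthmus, and mature parietal cells do not divide.

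Most DNA replication genes stood lower in the HFD library. The largest differences were at Uhrf1 of maintenance methylation (-3.85), the flap nuclease gene Fen1 (-3.74), the clamp loader gene Rfc2 (-3.44), Dut of nucleotide supply (-3.16) and the helicase factor Cdc45 (-2.80), all on the scale of log2(RPKM + 1), HFD minus Control; all but Rfc2 of these were listed at 0 in HFD. On that scale, 46 of the 56 listed members were lower in HFD and 10 were higher. Lower in HFD were 56.0% of all genes listed in either library and 56.0% of the protein-coding ones. Over 2-fold lower were 27 of the 56 (48.2%), against 23.9% of all 16037 genes listed in either library and 20.1% of the 11976 protein-coding genes. Over 2-fold higher were 0 of the 56, against 12.5% of all listed genes and 8.02% of protein-coding genes. Over the 9908 coding genes within the members' range of mean level, a comparison chosen after the values were seen, the shares were 17.2% lower and 6.32% higher. The median difference over all 57 members was -0.97, with Orc1, listed at 0 in both libraries, entered as 0; the median was -0.13 over all listed genes and -0.11 over protein-coding genes. Summed over the members, the level was 257 RPKM in HFD and 543 RPKM in Control, a ratio of 0.474. In bulk RNA, fewer dividing cells and less of these RNAs per cell cannot be told apart.

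**Figure D1:**
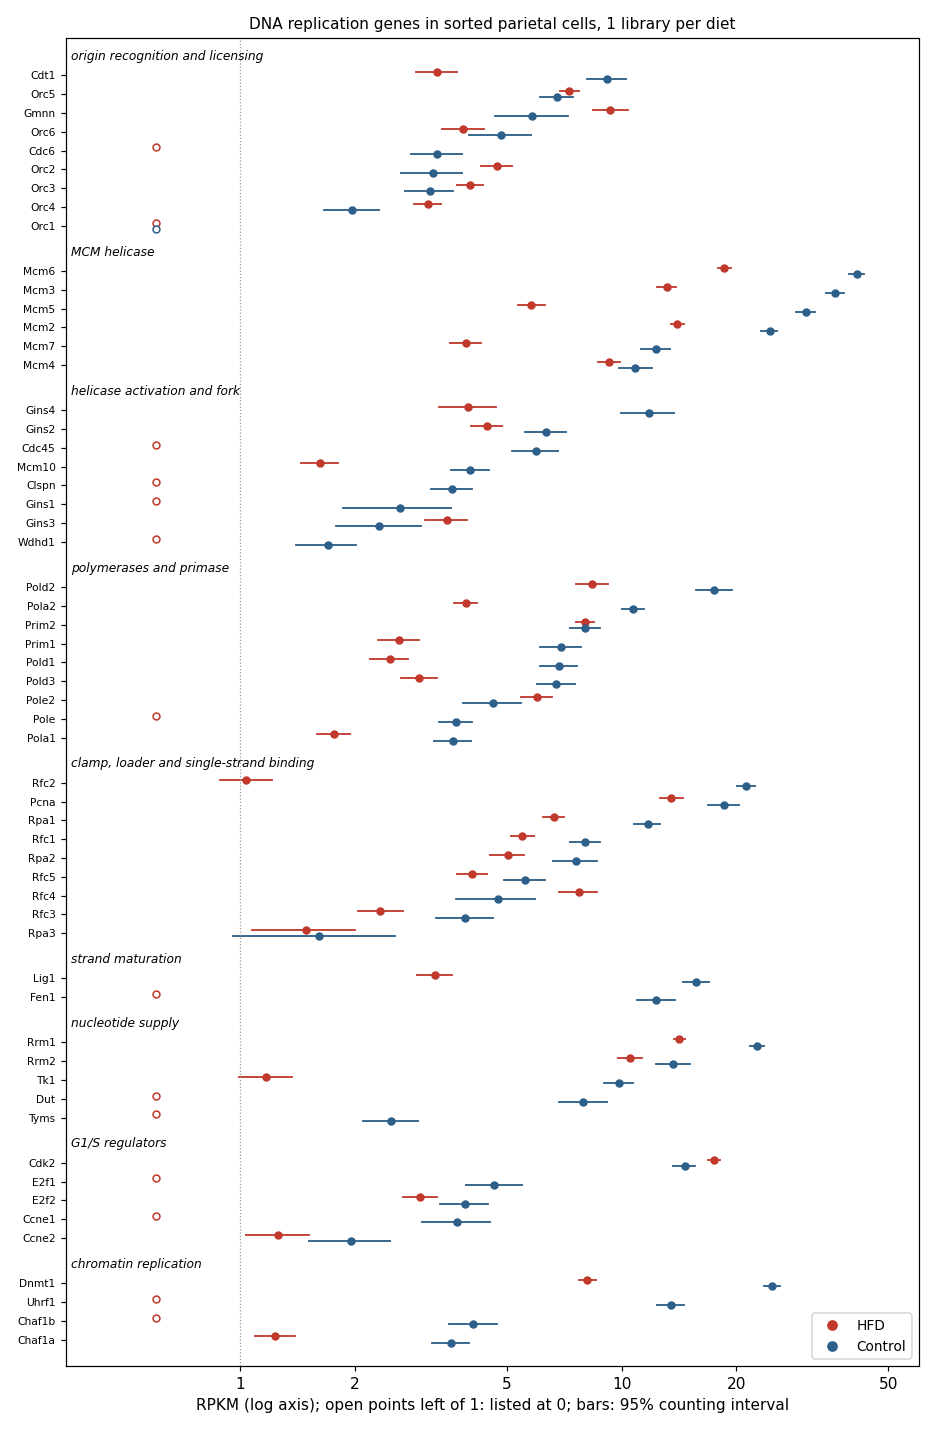
Level of each of the 57 members in the HFD library (red, upper point of each pair) and the Control library (blue, lower point) in RPKM on a log axis, grouped by role; bars are 95% counting intervals, and open points left of 1 RPKM mark genes listed at 0. HFD points lie left of their Control points for most members, with 13 open HFD points beside listed Control points, while Orc2, Orc3, Orc4, Gmnn, Gins3, Pole2, Rfc4 and Cdk2 lie the other way and Orc5 and Prim2 nearly coincide.

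Of the 27 members over 2-fold lower, 13 were listed at 0 in the HFD library, and any gene listed above 1 RPKM in Control alone is past 2-fold because of the pseudocount. The other 14 were listed in both. Among the 43 members listed in both libraries, the RPKM ratio without a pseudocount was over 2-fold lower in HFD for 18 (41.9%), against 12.5% of the 9997 protein-coding genes listed in both. The median log2 ratio was -0.68 over the 43 members and -0.04 over those coding genes. The counting interval of the ratio lay wholly below 1 for 31 members (72.1%; 42.1% of coding genes), wholly above 1 for 8 (18.6%; 37.8% of coding genes), and wholly beyond 2-fold lower for 15 (34.9%; 8.73% of coding genes). Listing at 0 was likewise more frequent than over the coding genes: of 33 members of at least 5 RPKM in Control, 4 (12.1%) were listed at 0 in HFD, against 2.06% of 7072 coding genes of that level. At any level, 13 of the 56 members listed in Control (23.2%) were at 0 in HFD, against 13% of coding genes, and 0 of the 43 members listed in HFD were at 0 in Control, against 4.65% of coding genes. Since the HFD library was the deeper of the pair, at an estimated 25.49 M reads against 9.84 M, a gene at its floor still stood for 29.0 to 285 reads there, depending on its length.

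The count depended on how the libraries are scaled, and the sign of the members' median did not. With the 20 most abundant genes left out of the total used for scaling (the trimmed total), 34 members were over 2-fold lower and 0 higher, while the shares over all listed genes were 35.2% and 6.87% and the median of all listed genes moved to -0.63. Rescaled to the total of protein-coding genes, 23 members were over 2-fold lower and 0 higher, with 21.01% and 16.7% over all listed genes and a median of all listed genes of 0.12. The members' own medians were -1.33 and -0.75 under these scalings, below the median of all listed genes in each case. Members above 0 numbered 3 and 12, against 10 on the values as deposited. The 13 members listed at 0 in HFD could not move under rescaling.

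**Figure D2:**
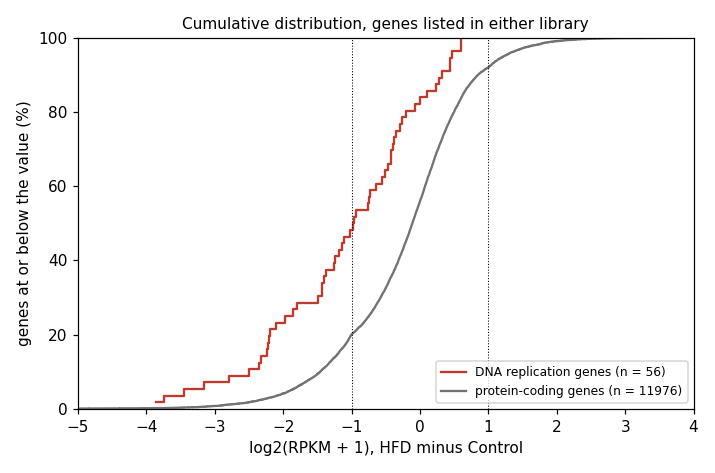
Cumulative share (%) of genes at or below each difference in log2(RPKM + 1), HFD minus Control, for the 56 listed DNA replication genes (red) and the 11976 protein-coding genes listed in either library (grey); dotted lines mark 2-fold. The red curve lies left of the grey curve, passing 48.2% at 2-fold lower against 20.1%, and ends before 2-fold higher.

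Exact matches to the E2F-type motifs TTTCCCGC, TTTGGCGC, TTTCGCGC and TTTGCCGC, read on both strands, were found in the promoter windows (250 bases before to 50 after a RefSeq start, GRCm38.p6) of 20 of the 48 members that have at least 1 window in the table, or 41.7%. Over all protein-coding genes with a window the share was 542 of 16188, or 3.35%. Some genes have several windows: counted by window, a match stood in 20 of the members' 60 (33.3%), in 2.89% of those of protein-coding genes and in 2.26% of all 32851. A match is a description of the letters and not a shown site. The 6 windows printed are those of the members that hold a match, reach at least 5 RPKM in Control and had the largest deficits in HFD, so that the letters can be read beside the levels given further on. Capitals mark the matches, and positions count from the RefSeq start, with that base as 1. They are Uhrf1 (chr17:56304063-56304362, plus strand), Mcm5 (chr8:75109259-75109558, plus strand), Lig1 (chr7:13278576-13278875, plus strand), Dnmt1 (chr9:20952574-20952873, minus strand), Mcm7 (chr5:138171834-138172133, minus strand) and Mcm3 (chr1:20820263-20820562, minus strand), each 5′ to 3′ on the strand of the gene.
Uhrf1: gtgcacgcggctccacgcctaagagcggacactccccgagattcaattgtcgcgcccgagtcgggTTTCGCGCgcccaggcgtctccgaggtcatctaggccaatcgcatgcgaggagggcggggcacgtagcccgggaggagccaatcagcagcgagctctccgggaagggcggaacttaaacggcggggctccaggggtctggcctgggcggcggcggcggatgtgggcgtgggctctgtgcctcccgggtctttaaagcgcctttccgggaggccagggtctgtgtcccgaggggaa
Mcm5: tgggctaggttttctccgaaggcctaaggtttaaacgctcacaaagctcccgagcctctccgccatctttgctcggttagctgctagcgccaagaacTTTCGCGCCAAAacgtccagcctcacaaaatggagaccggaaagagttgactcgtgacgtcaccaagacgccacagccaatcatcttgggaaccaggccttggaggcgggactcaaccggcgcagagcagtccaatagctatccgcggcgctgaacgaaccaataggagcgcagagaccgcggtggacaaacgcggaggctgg
Lig1: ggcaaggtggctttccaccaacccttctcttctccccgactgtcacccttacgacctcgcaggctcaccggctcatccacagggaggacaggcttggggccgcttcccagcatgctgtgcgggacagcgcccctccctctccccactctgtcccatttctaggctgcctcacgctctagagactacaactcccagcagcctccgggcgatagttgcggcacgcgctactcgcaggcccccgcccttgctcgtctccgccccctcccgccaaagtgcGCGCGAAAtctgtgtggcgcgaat
Dnmt1: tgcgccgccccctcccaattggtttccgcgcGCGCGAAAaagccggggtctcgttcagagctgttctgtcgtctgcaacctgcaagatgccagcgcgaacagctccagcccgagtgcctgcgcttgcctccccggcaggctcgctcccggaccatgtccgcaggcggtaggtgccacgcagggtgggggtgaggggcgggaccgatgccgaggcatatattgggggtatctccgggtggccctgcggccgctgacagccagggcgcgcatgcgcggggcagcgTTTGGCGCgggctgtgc
Mcm7: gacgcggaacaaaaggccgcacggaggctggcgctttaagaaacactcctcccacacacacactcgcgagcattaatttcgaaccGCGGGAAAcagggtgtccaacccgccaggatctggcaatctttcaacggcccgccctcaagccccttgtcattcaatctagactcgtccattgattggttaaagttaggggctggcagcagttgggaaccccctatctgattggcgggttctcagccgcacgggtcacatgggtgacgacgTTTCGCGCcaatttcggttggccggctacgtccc
Mcm3: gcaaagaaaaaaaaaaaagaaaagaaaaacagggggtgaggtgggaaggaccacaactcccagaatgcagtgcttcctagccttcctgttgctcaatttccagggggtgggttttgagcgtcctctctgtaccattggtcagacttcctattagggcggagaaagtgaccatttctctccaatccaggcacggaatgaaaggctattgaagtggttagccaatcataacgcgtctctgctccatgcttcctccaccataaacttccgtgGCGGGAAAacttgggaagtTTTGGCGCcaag

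The Mcm5 window held TTTCGCGC at -153 to -146 and, on the other strand and overlapping it, TTTGGCGC at -149 to -142. This whole window lies before the Mcm5 gene start (75109569) in the annotation used for exon lengths, so its positions do not count from that start. In Mcm3 and Mcm7 a match lay in the transcribed part, at 20 to 27 and 39 to 46 in Mcm3 and at 17 to 24 in Mcm7, where a second match stood at -165 to -158. Uhrf1 had its match at -185 to -178, Lig1 at 27 to 34 and Dnmt1 at -219 to -212 and 34 to 41. Of 19 listed members with a match, 11 were over 2-fold lower in HFD with a median of -1.18, and of 28 without a match, 12 were, with a median of -0.85. Listing at 0 in HFD ran the other way, with 3 of the 19 members with a match and 8 of the 28 without. Among the 416 listed coding genes with a match that are not members, 19.95% were over 2-fold lower, close to the 20.1% over all listed coding genes. The CCAAT box, the core letters bound by NF-Y, occurred in 29 of the 48 members (60.4%) and in 42.1% of coding genes. TTTGAA, also searched, was not more frequent in the members, with 7 of the 48 (14.6%) against 17.5% of coding genes.

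Of the 5 listed ORC subunits, 4 were above their Control level in HFD and Orc6 was below it, and the loading factors Cdc6 and Cdt1 were lower in HFD. Orc2 stood at 4.71 RPKM in HFD and 3.19 RPKM in Control (ratio 1.47, interval 1.21 to 1.82), Orc3 at 3.999 and 3.14 RPKM (1.27, 1.08 to 1.51) and Orc4 at 3.10 and 1.96 RPKM (1.58, 1.32 to 1.91). These core subunits of the complex were thus all higher in HFD by more than the counting error. Orc5, another core subunit, was at 7.29 RPKM in HFD and 6.76 RPKM in Control, and Orc6, the smallest subunit, at 3.84 and 4.83 RPKM, both with intervals that span a ratio of 1. Orc1, the subunit whose protein varies over the cell cycle in human cells, was listed at 0 in both libraries. The ORC median was 0.18 over the 6 genes and lay on the other side of 0, at -0.11, under the trimmed total, where Orc2, Orc3 and Orc5 changed sign and Orc4 alone stayed above 0, so the side of the ORC subunits depended on the scaling. Nif3l1 on the opposite strand covers 29.8% of the Orc2 exons.

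Cdc6, the ATPase that joins ORC to load the helicase, was listed at 0 in HFD and stood at 3.29 RPKM in Control. Cdt1, which brings the MCM ring to the origin, was 2.79 times lower in HFD (3.28 against 9.15 RPKM, interval 2.36 to 3.32). Gmnn encodes geminin, which binds Cdt1 and blocks loading in S and G2. Its level was 9.35 RPKM in HFD and 5.81 RPKM in Control, a ratio of 1.61 (1.26 to 2.06). The loader and its inhibitor therefore differed in opposite directions on the values as deposited. Gmnn stayed above 0 under each of the 3 other scalings, but only just under the trimmed total. There it was at 0.07 on the log2(RPKM + 1) scale, against 0.60 as deposited.

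All 6 subunits of the MCM2-7 helicase were lower in HFD, 4 of them over 2-fold. Rescaled to the total of protein-coding genes, 5 were lower and 3 over 2-fold, with Mcm6 at -0.83 on the log2(RPKM + 1) scale. Mcm6, the most abundant member in both libraries (chromosome 1, 128331590 to 128359664, mm10), was at 18.6 RPKM in HFD and 41.4 RPKM in Control, 2.22 times lower (2.09 to 2.37). Mcm3 was 2.76 times lower (13.1 against 36.2 RPKM) and Mcm7 3.15 times lower (3.90 against 12.3 RPKM, interval 2.77 to 3.58). The largest gap of the ring was at Mcm5 (ENSMUSG00000005410), 5.80 RPKM in HFD and 30.4 RPKM in Control, 5.25 times lower (4.75 to 5.80). Mcm2 was 1.74 times lower (14.0 against 24.4 RPKM, interval 1.64 to 1.85). Mcm4 was 1.17 times lower (9.25 against 10.9 RPKM, interval 1.04 to 1.33) and was the single subunit above 0 under that rescaling. The subunits join the ring in equal numbers, yet their ratios spread between 0.191 and 0.852, and their sum was 64.7 RPKM in HFD and 156 RPKM in Control.

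The factors of helicase activation and of the fork were mostly lower. Listed at 0 in HFD were 4 of the 8, against 13% of the protein-coding genes listed in Control. Cdc45, which completes the active helicase with GINS, was listed at 0 in HFD and at 5.95 RPKM in Control. Clspn encodes claspin, a fork protein of the S-phase checkpoint, and Wdhd1 a link between helicase and polymerase alpha; both were listed at 0 in HFD, with 3.59 and 1.69 RPKM in Control. Mcm10, needed to start unwinding, was 2.48 times lower (1.62 against 4.01 RPKM, interval 2.11 to 2.91).

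Within the GINS complex the 4 subunits differed in both directions. Gins4 was 2.99 times lower in HFD (3.95 against 11.8 RPKM, interval 2.35 to 3.77) and Gins1 was listed at 0 there, against 2.62 RPKM in Control. Gins2 was at 4.44 RPKM in HFD and 6.33 RPKM in Control, and 67.3% of its exons are covered by Gse1 on the opposite strand. Gins3 was the exception with 3.48 RPKM in HFD and 2.31 RPKM in Control, a ratio of 1.504 (1.13 to 2.01); it was -0.01 on the log2(RPKM + 1) scale under the trimmed total.

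**Figure D3:**
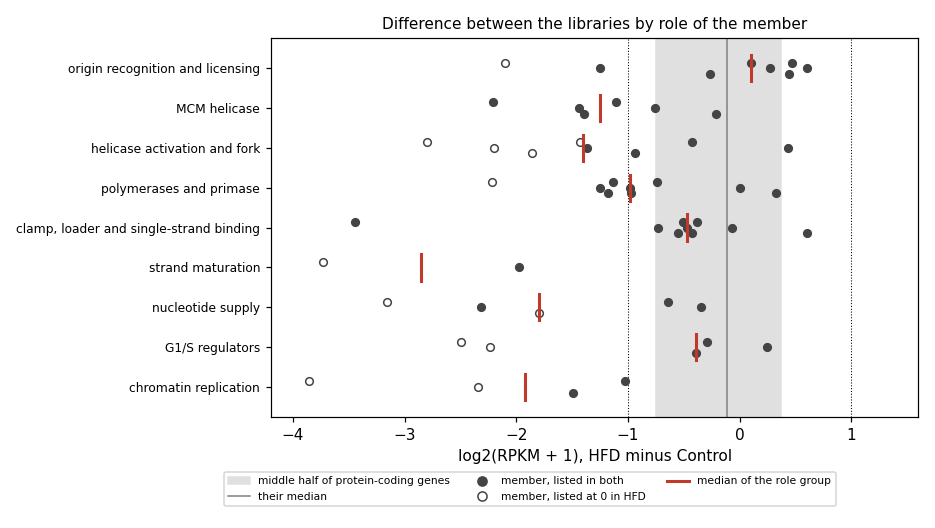
Difference in log2(RPKM + 1), HFD minus Control, for each listed member by role; filled points were listed in both libraries, open points were listed at 0 in HFD, red bars are medians over the group (Orc1, at 0 in both libraries, enters as 0 and is not drawn), and the grey band is the middle 50% of protein-coding genes. Origin recognition and licensing has its median at 0.10, inside the band, whereas the MCM helicase (-1.26), helicase activation (-1.40), nucleotide supply (-1.80), chromatin replication (-1.92) and strand maturation (-2.86) lie to its left.

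Of the 9 polymerase and primase genes 7 were lower in HFD, 4 of them over 2-fold; rescaled to the total of protein-coding genes, Prim1 (-0.92) and Pold1 (-0.96) fell short of 2-fold on log2(RPKM + 1). For polymerase alpha-primase, which lays down primers, Pola1 was 2.05 times lower in HFD (1.76 against 3.62 RPKM, interval 1.76 to 2.38) and its partner Pola2 2.74 times lower (3.91 against 10.7 RPKM). Prim1, the primase catalytic subunit, was 2.66 times lower (2.60 against 6.93 RPKM, interval 2.23 to 3.16), while Prim2, its regulatory partner, was at 8.02 RPKM in HFD and 8.01 RPKM in Control. Polymerase epsilon, which copies the leading strand, likewise had its subunits apart: Pole, the catalytic subunit, was listed at 0 in HFD and at 3.67 RPKM in Control, and Pole2 was at 5.99 and 4.59 RPKM (ratio 1.31, interval 1.07 to 1.6004). Both Prim2 and Pole2 were below 0 under the trimmed total.

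Polymerase delta, the lagging-strand enzyme, was lower in each of its 3 subunits on the list. The catalytic subunit Pold1 was 2.78 times lower (2.46 against 6.85 RPKM, interval 2.37 to 3.26), Pold2 2.09 times lower (8.38 against 17.5 RPKM) and Pold3 2.28 times lower (2.95 against 6.73 RPKM). On the log2(RPKM + 1) scale Pold2 (-0.98) and Pold3 (-0.97) lay just inside 2-fold, and Chaf1a (-1.03) just outside it.

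The clamp, its loader and the single-strand binding proteins differed less than most other groups, with a median of -0.47 and 1 of 9 members over 2-fold lower. Pcna, the sliding clamp that tethers polymerases to DNA, was at 13.5 RPKM in HFD and 18.5 RPKM in Control, 1.37 times lower (1.22 to 1.54). Its pseudogene Pcna-ps2 was listed higher than the gene itself, at 36.2 RPKM in HFD and 42.7 RPKM in Control, so reads may be divided between them. Rpa1, the large subunit of the single-strand binding protein, was 1.76 times lower (6.63 against 11.7 RPKM), Rpa2 1.51 times lower (5.02 against 7.58 RPKM), and Rpa3 stood at 1.48 and 1.61 RPKM on an estimated 43 and 18 reads.

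The clamp loader held the widest range of any complex on the list. Rfc2, a small subunit shared by all clamp loaders, was at 1.04 RPKM in HFD, just over the floor, and 21.2 RPKM in Control, 20.4 times lower (17.4 to 24.1), which was the largest ratio among the 43 members listed in both. Rfc4, another small subunit, went the other way, with 7.71 RPKM in HFD and 4.73 RPKM in Control (ratio 1.63, interval 1.26 to 2.15). Under the trimmed total Rfc4 was at 0.08 on the log2(RPKM + 1) scale, against 0.60 as deposited. The remaining subunits were modestly lower in HFD: Rfc1, the large subunit, at 5.49 against 8.02 RPKM, Rfc3 at 2.33 against 3.88 RPKM and Rfc5 at 4.06 against 5.58 RPKM. Genes on the opposite strand cover 15.1% of the Rfc2 exons (Lat2) and 12.7% of the Rfc4 exons (Eif4a2). Eif4a2, a translation factor gene, was itself at 126 RPKM in HFD and 54.9 RPKM in Control; whether its reads entered the Rfc4 value was not tested.

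Strand maturation and nucleotide supply held several of the largest gaps. Fen1, the nuclease that trims the flaps of Okazaki fragments (chromosome 19, 10199132 to 10204169, mm10), was listed at 0 in HFD and at 12.3 RPKM in Control. The floor of 1 RPKM for Fen1 corresponded to about 61.7 reads in the HFD library. An antisense gene, Gm10143, covers 78.8% of the Fen1 exons and stood at 1.25 RPKM in HFD and 7.21 RPKM in Control, so reads of the pair cannot be told apart without the strand. Lig1, which seals the nicks, was 4.85 times lower (3.23 against 15.7 RPKM, interval 4.26 to 5.54).

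Genes that make thymidine nucleotides differed more than the subunits of ribonucleotide reductase. Tk1, the thymidine kinase of dividing cells, was 8.40 times lower in HFD (1.17 against 9.82 RPKM, interval 6.998 to 10.1). Dut, which hydrolyses dUTP, and Tyms, which makes dTMP, were listed at 0 in HFD, with 7.91 and 2.49 RPKM in Control. Rrm1, the large subunit of ribonucleotide reductase, was 1.597 times lower (14.2 against 22.6 RPKM, interval 1.52 to 1.68). Rrm2, the small subunit expressed in S phase, was 1.30 times lower (10.5 against 13.7 RPKM, interval 1.14 to 1.47). The reductase subunits were thus among the most abundant members in HFD, where the thymidylate genes were at or near the floor.

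Of the G1/S regulators, E2f1, the transcription factor of S-phase genes, was listed at 0 in HFD and at 4.64 RPKM in Control, and Ccne1, the first cyclin E gene, at 0 and 3.71 RPKM. E2f2, a close relative of E2f1, was at 2.96 RPKM in HFD and 3.87 RPKM in Control, and Ccne2, the other cyclin E gene, at 1.26 and 1.96 RPKM. Cdk2, the kinase that cyclin E activates, was higher in HFD at 17.4 RPKM, against 14.6 RPKM in Control (ratio 1.19, interval 1.11 to 1.29), and was below 0 under the trimmed total. In this group E2f1 and Ccne1 were over 2-fold lower and E2f2 and Ccne2 were not, while Cdk2 was, with Mcm6, one of the most abundant members in HFD.

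All 4 genes of chromatin replication were over 2-fold lower in HFD, and 3 of them when rescaled to the total of protein-coding genes, where Chaf1a was at -0.86. Uhrf1, which reads hemimethylated DNA behind the fork and recruits Dnmt1 (ENSMUSG00000001228, chromosome 17, 56303321 to 56323486, mm10), was listed at 0 in HFD and at 13.4 RPKM in Control, the largest difference of the list on the log2(RPKM + 1) scale, -3.85. Dnmt1, the maintenance DNA methyltransferase, was 3.05 times lower (8.13 against 24.8 RPKM, interval 2.84 to 3.26). Chaf1b, of the histone chaperone CAF-1, was listed at 0 in HFD and at 4.09 RPKM in Control. Its partner Chaf1a was 2.88 times lower (1.24 against 3.56 RPKM, interval 2.44 to 3.40), with 52.5% of its exons covered by Ubxn6 on the opposite strand.

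The median exon length was 4426 bases for the 27 members over 2-fold lower and 3977 bases for the other 30. Their median Control level was 7.91 RPKM, against 5.70 RPKM for the others, but the Control level itself enters the call. The median of the mean level over both libraries ran the other way, at 4.76 RPKM against 5.34 RPKM. Annotated exons of other genes overlapped those of 21 members, in 9 of them over at least 10% of the exon length.

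Other genes of the pathway were taken from 5 lists. Of 39 listed accessory replication factors, 15 were over 2-fold lower in HFD and 0 higher (median -0.53 over 40). The most abundant were the histone chaperone genes Ssrp1 (30.4 against 41.8 RPKM) and Supt16 (14.8 against 21.5 RPKM), which together form FACT, and Chtf8 of an alternative clamp loader (19.6 against 29.2 RPKM). Dctpp1, a nucleotide pyrophosphatase gene, was the lowest, listed at 0 in HFD and at 22.99 RPKM in Control, and the histone chaperone gene Asf1a was the highest on log2(RPKM + 1), with 9.74 against 5.05 RPKM; by ratio Samhd1, which breaks down dNTPs, was slightly above it (1.95, 3.95 against 2.02 RPKM, and 1.93 for Asf1a).

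Mitotic genes showed a larger share below than the replication genes, 15 of 20 over 2-fold lower and 0 higher (median -1.38). The kinase gene Plk1 stood at 16.4 RPKM in HFD and 37.6 RPKM in Control, the proliferation marker Mki67 at 8.93 and 27.8 RPKM, and the cyclin gene Ccnb2, the lowest, at 2.26 and 20.6 RPKM; Bub1 of the spindle checkpoint was the highest at 2.11 and 1.99 RPKM. Replication checkpoint genes had 7 of 19 over 2-fold lower and 0 higher (median -0.36), and all 7 were listed at 0 in HFD. For the 12 found in both libraries the median of the log2 ratios was -0.03, with 1 over 2-fold lower and 1 over 2-fold higher by ratio and with intervals wholly below 1 for 4 and wholly above 1 for 5. Wee1, which restrains Cdk1, was at 18.9 RPKM in HFD and 16.4 RPKM in Control, Rad9a of the checkpoint clamp at 6.97 and 7.62 RPKM, and Rif1, a regulator of origin timing, was the highest at 7.46 and 3.70 RPKM.

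For the wider G1/S control the split was 5 over 2-fold lower and 2 higher of 24 listed genes (median -0.19), shares near those of all protein-coding genes. Cdk4 (23.9 against 35.1 RPKM) and its cyclins Ccnd1 (22.2 against 36.7 RPKM) and Ccnd2 (25.1 against 28.3 RPKM) were the most abundant, the third D-type cyclin gene Ccnd3 was 8.41 times lower in HFD (2.05 against 17.2 RPKM), and Mycn was listed at 1.37 RPKM in HFD and at 0 in Control. Of the CDK inhibitors, which hold cells out of S phase, 4 of 6 listed genes were over 2-fold lower and 0 higher (median -1.11 over 7). Cdkn1a was at 28.1 RPKM in HFD and 34.9 RPKM in Control, Cdkn1c at 10.04 and 24.7 RPKM, Cdkn1b, the highest, at 8.57 and 9.22 RPKM, and Cdkn2d, the lowest, was listed at 0 in HFD and at 5.43 RPKM in Control. Cdkn1a and Cdkn1b were thus not over 2-fold lower, and the interval of the Cdkn1b ratio spans 1. Rescaled to the total of protein-coding genes, 2 of the 6 inhibitors were over 2-fold lower and 1 lay above 0.

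**Figure D4:**
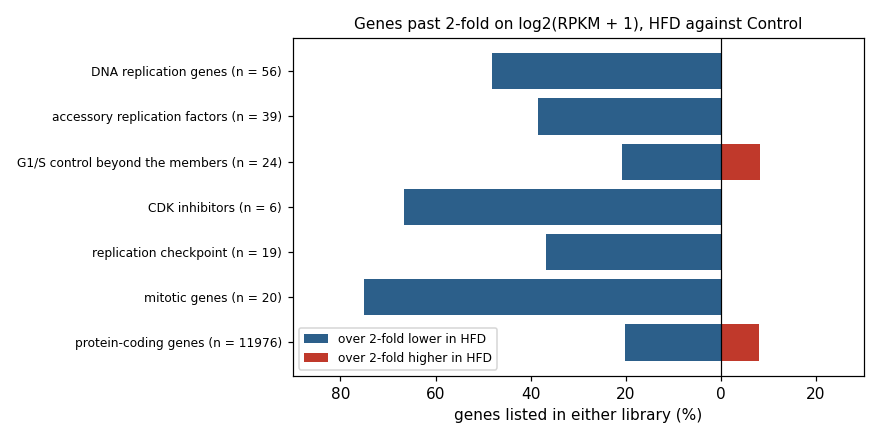
Share (%) of the listed genes of each list that was over 2-fold lower (left) or higher (right) in HFD than in Control on log2(RPKM + 1), with protein-coding genes at the bottom; n is the number of genes listed in either library. DNA replication genes (48.2% lower, 0% higher), mitotic genes and the 6 CDK inhibitors (66.7% lower) lie far to the left of the protein-coding genes (20.1% lower, 8.02% higher). The accessory (38.5% lower) and checkpoint (36.8% lower) lists lie between, and the wider G1/S list lies close to the protein-coding genes.

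Markers of several cell types differed between the libraries alongside the replication genes. They are counted by sign, and 56.0% of all listed genes were lower in HFD. Mki67 is in both the isthmus list and the mitotic list above. Markers of isthmus and proliferating cells were lower in 10 of 10 cases (116 RPKM summed in HFD, 358 in Control; Ccnb1 at 0 in HFD), fibroblast markers in 7 of 7 (46.9 and 143 RPKM; Lum and Pdgfra at 0 in HFD), smooth muscle markers in 6 of 6 (25.6 and 179 RPKM), endocrine markers in 6 of 8 (1212 and 8306 RPKM; Scg5 at 0 in HFD, Neurod1 in Control) and pancreatic acinar markers in 9 of 9 (1797 and 13582 RPKM; 7 at 0 in HFD). Endothelial markers were lower in 4 of 5 (4.61 and 17.3 RPKM; Tek at 0 in HFD, Vwf in both) and erythroid markers in 5 of 6 (22.5 and 64.8 RPKM; Alas2 at 0 in HFD). Parietal markers were higher in 10 of 11 (11216 and 9086 RPKM, with Atp4a and Atp4b abundant in both libraries), and in 5 of 11 under the trimmed total. Pit cell markers were higher in 4 of 6 (36056 and 14515 RPKM; Gsdmc at 0 in both) and in 2 of 6 under the trimmed total, chief cell markers lower in 4 of 6 (48583 and 106833 RPKM; Lipf at 0 in both) and neck cell markers lower in 3 of 3 (7503 and 8514 RPKM) and in 1 of 3 when rescaled to the total of protein-coding genes. Of 9 leukocyte markers 2 were higher in HFD, 1 was listed in Control only and 6 were at 0 in both libraries. Those at 0 in both included Ptprc, Cd3e, Cd79a, Itgam and Ms4a1. The leukocyte sum was 19.0 RPKM in HFD and 7.88 RPKM in Control. Some of these sums came mostly from 1 gene. The most abundant chief marker alone stood at 45624 RPKM in HFD and 102292 RPKM in Control. For the pancreatic acinar markers the most abundant stood at 1790 and 12989 RPKM. The part of these cell types in the difference of the replication genes was not tested.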

How the data were processed

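RNA from sorted cells was sequenced as 1 library per diet, HFD and Control. The deposited column is headed RPKM, and its values are log2 of RPKM: the largest was 18.22, and RPKM times exon length, read that way, gave multiples of a single step over single-exon genes (49.7% and 35.7% of values up to 12 steps were whole within 0.005 in HFD and Control). Genes at or below 1 RPKM were listed as 0. Bedtools 2.25.0 and mm10 are named in the submitters' processing notes; the sources used here do not give the aligner, counting rule, use of strand or annotation release.

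Symbols, positions and exon lengths came from GENCODE M21 on GRCm38 (36308 of 38087 identifiers matched), and promoter windows from RefSeq. The difference was log2(RPKM + 1), HFD minus Control, with 0 entered as 0 RPKM and values not rescaled. Reads were estimated from RPKM, exon length and a depth of 25.49 M and 9.84 M reads from the steps; ratio intervals are conditional binomial at 95%, level intervals exact Poisson. No molecular identifiers are named, so reads are not separate molecules. No count model was run. Calculations (Python 3.11.15, pandas 2.3.3, scipy 1.17.1) were checked on simulated data. All members are named; of other lists, the 3 most abundant genes and the highest and lowest difference, except values not reported here. The members and lists were chosen with earlier results of these data known.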

Additional observations from a re-analysis of the deposited data

How the results depend on the processing

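Over 8 alternatives the number of DNA replication genes over 2-fold lower in HFD ranged from 17 to 34, the number over 2-fold higher stayed at 0, and the median difference ranged from -1.33 to -0.68. The count was 17 of 35 members at a minimum of 5 RPKM in either library and 18 of 43 over members listed in both; fewer genes enter there. With a pseudocount of 0.1 RPKM the medians of helicase activation and of strand maturation were -2.86 and -4.60, since genes listed at 0 weigh more. With the 20 most abundant genes left out of the scaling total, those of the polymerases and of the clamp group were -1.51 and -0.97, following the shift of all HFD values by -0.61. The licensing median lay between -0.19 and 0.36, so no direction is given; the G1/S median was 0.24 at the minimum of 5 RPKM, where Cdk2 alone was left, and below 0 elsewhere. No member over 2-fold lower changed sign under any of the 8, but none of these alternatives could have brought this about. The largest upward shift of HFD values was 0.29 on log2, and rescaling does not move members listed at 0 in HFD. No paired analysis was possible because each diet had 1 library, and no replicate could be left out. Short, low genes such as Rpa3 rest on few reads, and levels below 1 RPKM are not resolved.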
